A study of Homo sapiens with 6 samples.

Results

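The MHC class II presentation genes are 10 genes taken by symbol from the 60660 gene IDs measured in OCI-AML3, a long-established line of human leukaemia cells from acute myeloid leukaemia (AML). They are CIITA and RFX5, which switch the class II genes on, CD74, the invariant chain, the antigen-presenting chains HLA-DRA, HLA-DRB1, HLA-DPA1, HLA-DPB1 and HLA-DQB1, and the peptide-exchange chains HLA-DMA and HLA-DMB. The genes were listed by name, not by a measured value. All 10 had at least 1 read in the 6 RNA-seq libraries, and 8 passed the filter on low values that preceded the test. HLA-DRB1 and HLA-DPB1 did not.

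The series compared 3 libraries of OCI-AML3 cells carrying an empty pLenti vector with 3 libraries of the same line overexpressing SLC2A3, which encodes the glucose transporter GLUT3. Cells of both groups were treated with 250 µM vitamin C, so no group without the vitamin is compared here. Each value is the reads counted on a gene, scaled by a single factor for its library, and is called normalised reads below. The labels do not say whether replicates were separate cultures or whether the overexpressing line was a clone, so the p-values reflect the spread among these libraries alone, which may be technical. In bulk RNA, fewer cells expressing a gene and less of its RNA per cell cannot be told apart.

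MHC class II molecules are pairs of an alpha and a beta chain that carry peptides from endocytosed protein to the surface for CD4+ T cells. CD74 occupies the groove of new alpha-beta pairs on their way to the endosome, where cathepsins degrade it, and HLA-DM then exchanges its remnant for peptide. CIITA has no DNA-binding domain of its own and is recruited to class II promoters by the RFX complex, CREB family factors and NF-Y, which sit on spaced elements called the S, X and Y boxes. Among leukaemias, loss of surface HLA-DR is best known from the promyelocytic subtype.

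CIITA acts at class II promoters through these elements, so promoter stretches with letters like those of the X and Y boxes are shown first. In RefSeq promoter windows of 300 bases (250 before and 50 after an annotated start, GRCh38.p14), 8 of the 10 genes had an entry and CIITA and HLA-DRA did not. Each line gives 50 bases of the gene's own strand, 5′ to 3′, on chromosome 5 for CD74 and chromosome 6 for the others. The first capitals are an X-like run, CNAGNNA, where N is any base. The second capitals are a Y-like run, ATTGG, or its reverse complement CCAAT.
CD74, chr5:150412948-150412997, minus strand: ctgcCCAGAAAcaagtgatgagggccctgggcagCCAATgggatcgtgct
HLA-DRB1, chr6:32589884-32589933, minus strand: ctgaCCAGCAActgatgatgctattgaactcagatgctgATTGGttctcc
HLA-DPB1, chr6:33075852-33075901, plus strand: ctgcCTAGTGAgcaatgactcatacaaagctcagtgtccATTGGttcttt
HLA-DQB1, chr6:32666735-32666784, minus strand: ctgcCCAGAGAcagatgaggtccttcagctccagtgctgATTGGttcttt
HLA-DMA, chr6:32953167-32953216, minus strand: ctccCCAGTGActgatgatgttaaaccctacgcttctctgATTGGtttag
HLA-DPA1, chr6:33073705-33073754, minus strand: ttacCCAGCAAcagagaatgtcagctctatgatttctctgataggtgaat
HLA-DMB, chr6:32941073-32941122, minus strand: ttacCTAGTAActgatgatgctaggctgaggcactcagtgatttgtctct

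HLA-DRB1, HLA-DPB1 and HLA-DQB1 had 28 bases between the X-like and Y-like runs, and HLA-DMA had 29. CD74 had CCAAT in place of ATTGG after a gap of 23 bases, and the stretches of HLA-DPA1 and HLA-DMB held only the X-like run. The stretches of CD74, HLA-DPA1 and HLA-DMB were picked by an X-like run followed by C. The share of all windows holding such a run was not counted, so its presence sets these genes apart from no others. The pair CNAGNNA, 28 or 29 bases and ATTGG, searched on both strands, lay in windows of 4 of the 8 genes and in 110 of 35116 windows of all genes, which is 0.313%. ATTGG alone on either strand lay in windows of 7 of the 8 genes and in 34.6% of all windows. These patterns were written after the windows had been looked at, and a match describes letters, not a bound site. The windows of RFX5 held no such pair.

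The class II genes stood at very unequal levels in OCI-AML3. CD74 and RFX5 were abundant, HLA-DMA was near the middle of all coding genes, and CIITA, HLA-DMB and the 5 antigen-presenting chains were low or close to absent. Levels between genes are given as normalised reads per kilobase of merged exons, as mean ± SD over the 6 libraries. CD74 stood at 1247 ± 62.9, above 94.2% of 19891 coding genes. RFX5 stood at 492 ± 12.1, above 85.3%, and HLA-DMA at 41.6 ± 5.93, above 51.2%. These 3 genes did not overlap one another or the rest in any library.

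Below them the order was not resolved. CIITA stood at 4.27 ± 1.04 normalised reads per kilobase, HLA-DRA at 4.20 ± 3.29, HLA-DPA1 at 3.48 ± 1.74 and HLA-DMB at 1.71 ± 1.23. HLA-DQB1 followed at 0.320 ± 0.510, HLA-DPB1 at 0.175 ± 0.290 and HLA-DRB1 at 0.136 ± 0.333. From CIITA down, the range of each gene over the 6 libraries overlapped that of the next. With the longest coding transcript as gene length, CD74, RFX5 and HLA-DMA kept the first 3 places, while HLA-DPA1 moved to the 4th place at 11.8 and CIITA to the 6th at 5.51.

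**Figure D1:**
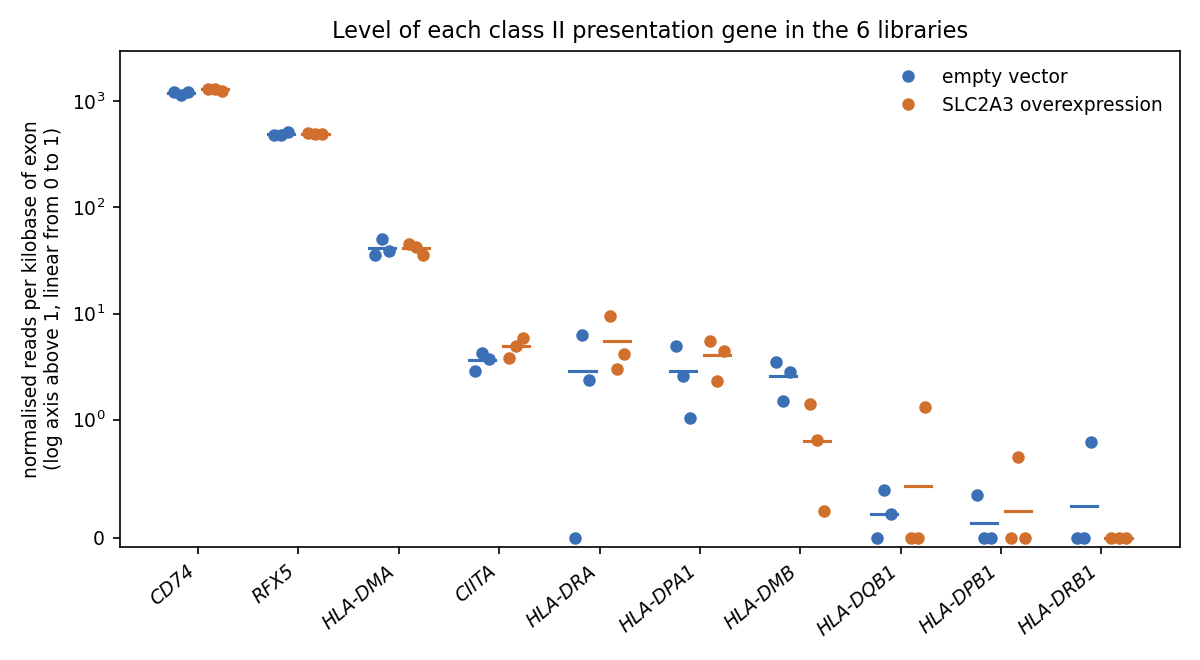
Level of each class II presentation gene in normalised reads per kilobase of merged exons (log axis above 1, linear from 0 to 1), with 1 point per library, blue for empty vector and orange for SLC2A3 overexpression, and a bar at each group's mean. CD74, RFX5 and HLA-DMA lie apart from the others, whose points overlap and reach 0 for HLA-DRA, HLA-DQB1, HLA-DPB1 and HLA-DRB1.

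Class I genes of the same locus gave a scale for these levels. HLA-B and HLA-C, chains that present peptides to CD8+ T cells, stood at 9368 ± 261 and 2961 ± 148 normalised reads per kilobase over the 6 libraries. The 5 class II antigen-presenting chains together reached 8.31 ± 3.92 on that scale. NLRC5, the class I counterpart of CIITA, stood at 440 ± 16.7 against 4.27 ± 1.04 for CIITA. The class I genes were chosen after the class II values had been seen.

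SLC2A3 itself (chromosome 12, 7919230 to 7936275, minus strand) held 1194, 1183 and 1257 normalised reads with the empty vector and 4056, 3716 and 4054 with SLC2A3. It was 3.25-fold higher in the libraries labelled as overexpressing it, with a log2 fold change of 1.70 (limma adjusted p = 7.95e-18, n = 3 per group). Recovered reads numbered 31054462 to 35770556 per library. Of 7 AML and myeloid identity genes, CD33 held 2421 to 2625 and CSF3R 7184 to 7718 normalised reads, while the progenitor markers CD34 and KIT were low. CD34 held 16.3 to 54.0 normalised reads, and KIT had 4 reads in all and was at 0 in all but 2 libraries. Of the 7, 6 were tested. limma called 0 (1.49% of all tested genes), with an unadjusted limma p under 0.05 for 2 (11.8% of all). edgeR called 0 of 6 (3.29% of all), and DESeq2 called 1 of 4 (7.98% of all). The gene called was NPM1, higher with SLC2A3 (DESeq2 adjusted p = 0.0466). The noncoding RNA RN7SL1, chosen after its values were seen, held 538, 1812 and 705 normalised reads with the empty vector and 2233, 6026 and 1922 with SLC2A3, highest in the library numbered 2 of each group. It was 3.33-fold higher with SLC2A3, past the threshold (log2 fold change 1.74, limma adjusted p = 0.00086) and with groups that did not overlap, and its part in the results was not tested.

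None of the 10 class II presentation genes passed the test between SLC2A3 overexpression and empty vector. By limma on log2(value + 1) with p-values adjusted over 28015 genes, 0 of the 8 tested genes were called, 2 had an unadjusted p under 0.05 (CD74 and HLA-DMB), and among all tested genes 1.49% were called and 11.8% had such a p. edgeR's quasi-likelihood test on the recovered reads called 0 of the 5 genes it tested, 1 of which had an unadjusted p under 0.05, and its lowest adjusted p was 0.250. DESeq2 called 0 of the 2 genes for which it gave an adjusted p, and the lowest was 0.141. edgeR called 3.29% of all genes it tested and DESeq2 7.98%. The groups did not overlap for 2 of the 8 genes, CD74 and HLA-DMB, against 16.3% of all tested genes. The median log2 fold change of the 8 genes was 0.11, against 0.00 over all tested genes.

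CIITA (ENSG00000179583.19, chromosome 16, 10866222 to 10943021, plus strand), the master coactivator of the class II genes, held 60.1, 88.0 and 78.1 normalised reads in the empty vector libraries. In the SLC2A3 libraries it held 79.9, 104 and 122. The SLC2A3 libraries numbered 2 and 3 were above every empty vector library, while the library numbered 1 fell among them, so the groups overlapped. The means were 75.4 ± 14.1 and 102 ± 21.0 (SD, n = 3), and the log2 fold change of 0.42 had a 95% confidence interval of -0.02 to 0.87 (limma adjusted p = 0.457). These values rest on 225 reads against 308 over the 3 libraries of each group. CIITA shares 2416 exon bases with DEXI on the opposite strand, which averaged 49.9 normalised reads, and no source used here says whether counting was strand-specific.

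RFX5 (ENSG00000143390.18, chromosome 1, 151340640 to 151347357, minus strand), the DNA-binding subunit of the RFX complex, varied least for its level, at 492 ± 12.1 normalised reads per kilobase over the 6 libraries. It held 2200, 2203 and 2344 normalised reads with the empty vector and 2297, 2249 and 2244 with SLC2A3. No SLC2A3 library left the range of the empty vector libraries. Its log2 fold change was 0.01 with a 95% confidence interval of -0.10 to 0.12 (limma adjusted p = 0.976). The antisense gene RFX5-AS1, which shares 93 exon bases with it, averaged 15.0 normalised reads.

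CD74 (ENSG00000019582.15, chromosome 5, 150401637 to 150412929, minus strand), the chaperone of the class II pairs and also a receptor for the cytokine MIF, held 3925, 3656 and 3867 normalised reads in the empty vector libraries. It held 4185, 4173 and 4012 in the SLC2A3 libraries. Every SLC2A3 library was above every empty vector library, by a narrow margin between 3925 and 4012. The means of 3816 ± 141 and 4124 ± 96.5 (SD, n = 3) differed 1.08-fold. The log2 fold change of 0.11 had a 95% confidence interval of 0.01 to 0.21 and did not pass the threshold over all genes (limma adjusted p = 0.336).

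HLA-DRA (ENSG00000204287.14, chromosome 6, 32439842 to 32445046, plus strand), the alpha chain common to HLA-DR molecules, held 0, 8.0 and 3.0 normalised reads with the empty vector and 12.1, 3.84 and 5.34 with SLC2A3. It had 33 reads in all 6 libraries, 11 (95% counting interval 5.49 to 19.7) against 22 (13.8 to 33.3), so the counting intervals of the groups overlapped. The log2 fold change of 1.16 had a 95% confidence interval of -0.42 to 2.73 (limma adjusted p = 0.623). Its partner HLA-DRB1 (ENSG00000196126.11, chromosome 6, 32578769 to 32589848, minus strand) had 1 read, in the empty vector library numbered 3. The count of 0 over the SLC2A3 libraries has a two-sided 95% counting interval that reaches 3.69 reads. These counts cannot tell whether the groups differed within that low range.

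HLA-DPA1 (ENSG00000231389.7, chromosome 6, 33064569 to 33080775, minus strand), the alpha chain of HLA-DP, held 28.5, 15.0 and 6.01 normalised reads with the empty vector and 31.6, 13.4 and 25.6 with SLC2A3. The libraries of the groups interleaved. Its log2 fold change was 0.64 with a 95% confidence interval of -0.38 to 1.66 (limma adjusted p = 0.701), from 49 reads against 72. Its beta chain partner HLA-DPB1 (ENSG00000223865.11, chromosome 6, 33075926 to 33087201, plus strand) had 3 reads in all, spread over 2 libraries of different groups. The alpha and beta chain genes overlap on opposite strands by 96 exon bases.

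HLA-DQB1 (ENSG00000179344.16, chromosome 6, 32659467 to 32668383, minus strand), the beta chain of HLA-DQ, had 9 reads in all. It held 0, 2.0 and 1.0 normalised reads with the empty vector and 0, 0 and 6.41 with SLC2A3, so most of its reads came from 1 library. The log2 fold change of 0.10 had a 95% confidence interval of -1.76 to 1.96 (limma adjusted p = 0.986). HLA-DRB and HLA-DQ genes have near-identical copies between which counting could split reads, so their values are uncertain. The copies measured here held almost no reads, as given with the other class II genes. That does not show how reads matching several copies were counted. HLA-DRB3 and HLA-DRB4 had no gene ID here and were not measured.

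**Figure D2:**
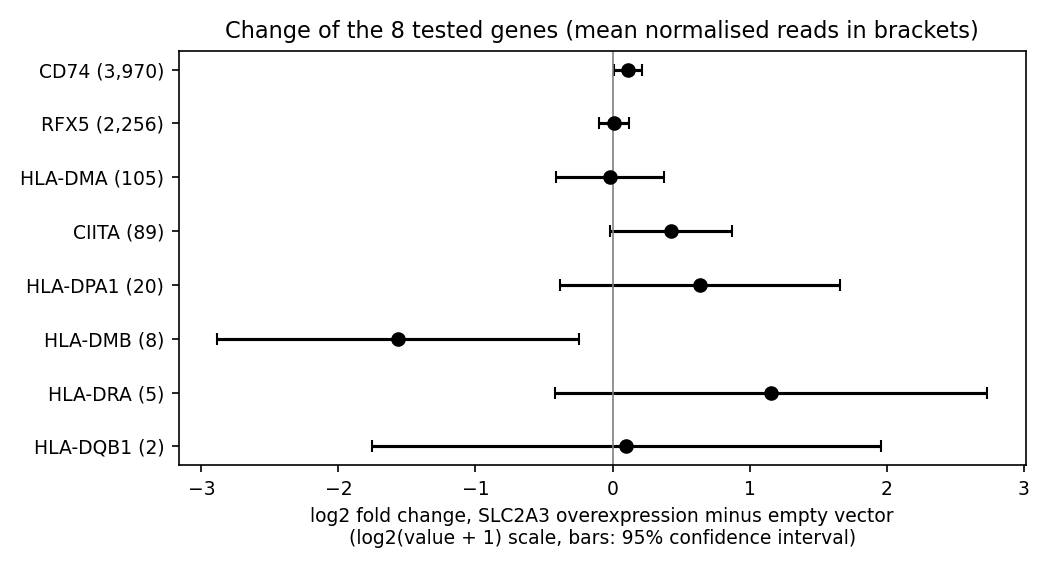
Log2 fold change of the 8 tested class II presentation genes, SLC2A3 overexpression minus empty vector on the log2(value + 1) scale, with 95% confidence intervals and the mean normalised reads of the 6 libraries in brackets. The interval is narrow for CD74 and RFX5 and wide for the genes with few reads, and it misses 0 for CD74 and HLA-DMB, neither of which passed the threshold over all genes.

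HLA-DMA (ENSG00000204257.15, chromosome 6, 32948613 to 32969094, minus strand), the alpha chain of the peptide exchanger HLA-DM, held 90.7, 129 and 99.1 normalised reads with the empty vector and 115, 107 and 90.8 with SLC2A3. The SLC2A3 libraries all lay within the range of the empty vector libraries. Its log2 fold change was -0.02 with a 95% confidence interval of -0.41 to 0.38 (limma adjusted p = 0.991). HLA-DMA shares 55 exon bases with BRD2 on the opposite strand, and BRD2 averaged 9011 normalised reads.

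HLA-DMB (ENSG00000242574.9, chromosome 6, 32934629 to 32941070, minus strand), the beta chain of HLA-DM, held 16.3, 7.0 and 13 normalised reads with the empty vector and 6.5, 3.84 and 1.07 with SLC2A3. Every SLC2A3 library was below every empty vector library, the closest being 6.5 and 7.0. The means were 12.1 ± 4.71 and 3.8 ± 2.72 (SD, n = 3), 3.18-fold apart. The log2 fold change of -1.56 had a 95% confidence interval of -2.88 to -0.24 and did not pass the threshold (limma adjusted p = 0.297). It rests on 36 reads against 12, a ratio per normalised depth of 3.08 with a 95% counting interval of 1.56 to 6.49, which covers counting error only.

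The genes that work together were unequal in every library. CD74 stood 88.1 to 275 times above the summed per-kilobase level of the 5 antigen-presenting chains, which it chaperones. Those 5 genes summed to 29.5, 25 and 11 normalised reads with the empty vector and 43.6, 19.2 and 37.4 with SLC2A3, from 167 reads in all, and the groups overlapped. CD74 was 22.6 to 35.2 times above HLA-DMA per kilobase. HLA-DMA was in turn 10.2, 33.9 and 14.0 times above its partner HLA-DMB per kilobase with the empty vector and 32.5, 51.4 and 156 times with SLC2A3. These ratios overlapped between groups, and the highest rests on 1 HLA-DMB read. They also depend on gene length: with the longest coding transcript, HLA-DMA averaged 93.8 and HLA-DMB 5.69 per kilobase over the 6 libraries. HLA-DMB shares 438 exon bases and HLA-DMA 174 with ENSG00000248993 on the same strand, which was at 0 in every library. HLA-DMA also shares 55 exon bases with BRD2 on the opposite strand, which averaged 9011 normalised reads. How reads in such shared bases were counted is not given, and the part of BRD2 reads in the HLA-DMA level was not tested.

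The other class II genes were scarce too. Of 6 measured, HLA-DOB, the beta chain of the HLA-DM inhibitor HLA-DO, was the only one tested. It held 11.2, 15.0 and 15.0 normalised reads with the empty vector and 9.29, 20.1 and 21.4 with SLC2A3 (limma adjusted p = 0.921). HLA-DRB5 was at 0 in every library, and HLA-DQA1, HLA-DQA2, HLA-DQB2 and HLA-DOA held between 0 and 2.0 normalised reads in any library. Of 7 class II pseudogenes and antisense genes, 5 were at 0 throughout and none passed the filter for testing.

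The factors that bring CIITA to its promoters were all expressed, as were the acetyltransferases that work with it there, of which CREBBP and EP300 fell with SLC2A3. Of the 10 genes of this promoter complex list, all tested, limma called 0 higher and 2 lower, beside 0.692% higher and 0.8% lower of all tested genes. CREBBP, a histone acetyltransferase that binds CIITA, fell from 3646, 3488 and 3939 normalised reads to 2974, 2964 and 3107. This is a 1.22-fold difference of means, with a log2 fold change of -0.29 (limma adjusted p = 0.00222, n = 3 per group). Its paralogue EP300 fell from 4735, 4340 and 4552 to 3925, 3747 and 3805, with a log2 fold change of -0.25 (limma adjusted p = 0.00476). Neither gene's groups overlapped. EP300 lost the call without SLC2A3 replicate 3, at an adjusted p of 0.0536.

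RFXANK, the ankyrin-repeat subunit that works with RFX5, held 2700, 2842 and 2801 normalised reads with the empty vector and 3008, 2888 and 2884 with SLC2A3. Its groups did not overlap, and its limma adjusted p was 0.655. RFXAP, the remaining RFX subunit, averaged 281 ± 17.2 and 253 ± 35.6 (adjusted p = 0.699). Among the NF-Y subunits, which bind the Y box, NFYA averaged 1498 ± 66.6 and 1458 ± 96.2 (adjusted p = 0.885). NFYC averaged 1303 ± 128 and 1161 ± 36.2, with groups that did not overlap (limma adjusted p = 0.348). Of the 10 listed genes, CREBBP, EP300 and NFYC, 3 in all, had an unadjusted limma p under 0.05 (11.8% of all tested genes). Groups did not overlap for 4, these and RFXANK (16.3% of all tested genes). The median log2 fold change of the list was -0.09, against 0.00 for all tested genes.

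**Figure D3:**
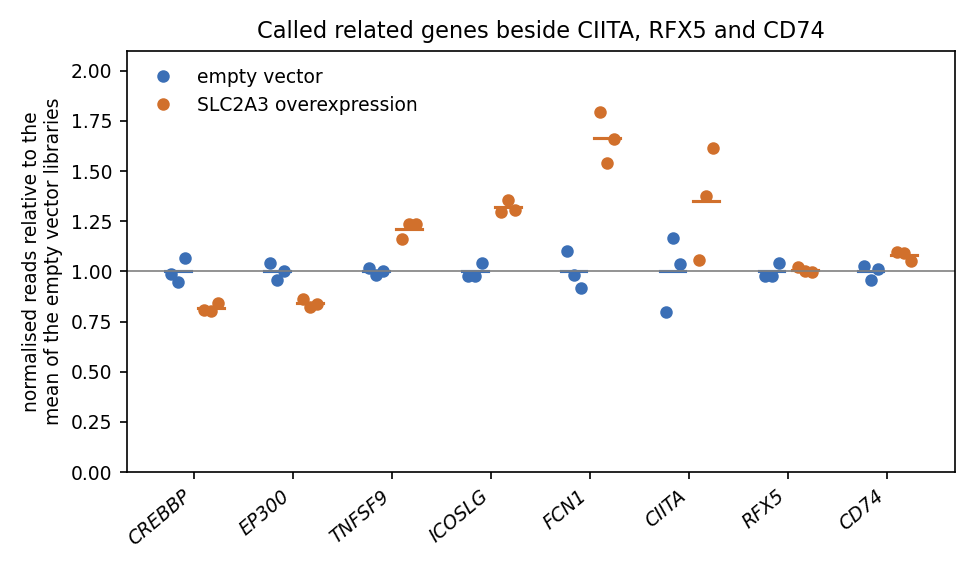
Normalised reads of each library divided by the mean of the empty vector libraries, for the 5 related genes that limma called and for CIITA, RFX5 and CD74, with 1 point per library, blue for empty vector and orange for SLC2A3 overexpression, and bars at group means. CREBBP and EP300 lie below 1 and TNFSF9, ICOSLG and FCN1 above it in all 3 SLC2A3 libraries, while RFX5 stays at 1 and the CIITA groups overlap.

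The signals that induce CIITA were also read. Of 12 genes on the interferon gamma route, 11 were tested and limma called 0 (1.49% of all tested genes), with an unadjusted p under 0.05 for 2, IRF1 and SOCS1 (11.8% of all). Groups did not overlap for 3 of the 11, JAK1, IRF1 and SOCS1 (16.3% of all tested genes). edgeR called 0 of 11 (3.29% of all) and DESeq2 0 of 8 (7.98% of all). IFNG, the cytokine itself, was at 0 in every library. JAK1, a kinase of its receptor, averaged 2479 ± 8.14 and 2344 ± 106 normalised reads (limma adjusted p = 0.622). IRF1, a transcription factor that acts on the CIITA promoter, averaged 1412 ± 76.9 and 1213 ± 104, with groups that did not overlap and a limma adjusted p of 0.129. SOCS1, an inhibitor of the pathway that interferon gamma also induces, averaged 22.2 ± 5.25 and 41.8 ± 12.5, with groups that did not overlap and a limma adjusted p of 0.297.

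Factors that set CIITA in particular blood lineages likewise gave 0 calls by limma among 7 tested of 8, with 1 unadjusted p under 0.05 (SPI1), against 1.49% called and 11.8% with such a p among all tested genes. edgeR called 0 of 5 and DESeq2 0 of 3, against 3.29% and 7.98% of all genes. SPI1, the myeloid factor PU.1, averaged 14900 ± 612 and 16172 ± 686 normalised reads (limma adjusted p = 0.182). IRF8, its myeloid partner, averaged 27494 ± 137 and 26586 ± 778 (adjusted p = 0.665). Both stood far above CIITA, at 7509 and 5238 normalised reads per kilobase.

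The machinery that processes CD74 and antigen was abundant. All 16 genes of endolysosomal processing were tested, and limma called 0, with an unadjusted p under 0.05 for 3, against 1.49% and 11.8% of all tested genes. edgeR called 1 of 15 and DESeq2 1 of 13, against 3.29% and 7.98% of all genes. CTSD, the aspartyl protease cathepsin D, was the 1 gene of the list that the count tests called, higher with SLC2A3 (edgeR adjusted p = 0.0364, DESeq2 adjusted p = 0.00511, limma adjusted p = 0.0667). Its means were 11420 ± 368 and 12652 ± 436 normalised reads, and its groups did not overlap. Groups did not overlap for 3 of the 16 genes (16.3% of all tested genes). CTSS, the cathepsin that cuts the last part of CD74, averaged 1899 ± 94.6 and 1921 ± 56.5 (limma adjusted p = 0.956). CTSZ, CST3 and CTSB, the other most abundant genes of the list, had limma adjusted p of 0.982, 0.823 and 0.985. LGMN, the asparaginyl endopeptidase, and IFI30, the lysosomal thiol reductase GILT, were scarce, at 6.36 ± 2.49 and 8.76 ± 2.06, and at 10.4 ± 5.12 and 12.8 ± 7.1 normalised reads.

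Genes that move class II molecules through the cell or mark them for degradation gave 0 calls by limma among 11 tested of 12, with an unadjusted p under 0.05 for 3, against 1.49% and 11.8% of all tested genes. The groups did not overlap for 6 of the 11 (16.3% of all tested genes): CD83, CD81, AP1M1, AP2M1 and RAB7A, with lower means in the SLC2A3 group, and CD9, with a higher one. edgeR called 0 of 11 (3.29% of all). DESeq2 called 1 of 10 (7.98% of all), AP2M1, a clathrin adaptor subunit, lower with SLC2A3 (DESeq2 adjusted p = 0.0324, limma adjusted p = 0.153). MARCHF1, the ligase that ubiquitinates class II beta chains, averaged 201 ± 1.61 and 206 ± 19.5 normalised reads (limma adjusted p = 0.958). CD83, which counters that ligase, averaged 727 ± 23.0 and 604 ± 72.4, with an adjusted p of 0.130.

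Among the costimulatory and adhesion molecules that accompany class II on presenting cells, limma called 2 of 11 tested genes higher and 0 lower, beside 0.692% and 0.8% of all tested genes, and 3 had an unadjusted p under 0.05 (11.8% of all). ICOSLG, the ligand of the T cell receptor ICOS, rose from 1206, 1205 and 1283 normalised reads to 1597, 1670 and 1608. It was 1.32-fold higher with SLC2A3, with a log2 fold change of 0.40 (limma adjusted p = 0.00036, n = 3 per group). TNFSF9, the ligand of 4-1BB, rose from 1602, 1544 and 1573 to 1829, 1949 and 1946, 1.21-fold, with a log2 fold change of 0.28 (limma adjusted p = 0.00903). No library of either gene crossed between groups. TNFSF9 lost the call without SLC2A3 replicate 3, at an adjusted p of 0.0853. CD86, a main ligand of CD28, averaged 221 ± 37.7 and 220 ± 32.9 (adjusted p = 0.997), and CD40 518 ± 8.84 and 477 ± 34.9 (adjusted p = 0.68). CD58, an adhesion ligand of CD2, averaged 125 ± 12 and 87.7 ± 7.75, with groups that did not overlap and a limma adjusted p of 0.217. Groups did not overlap for 3 of the 11 tested genes, ICOSLG, TNFSF9 and CD58 (16.3% of all tested genes).

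**Figure D4:**
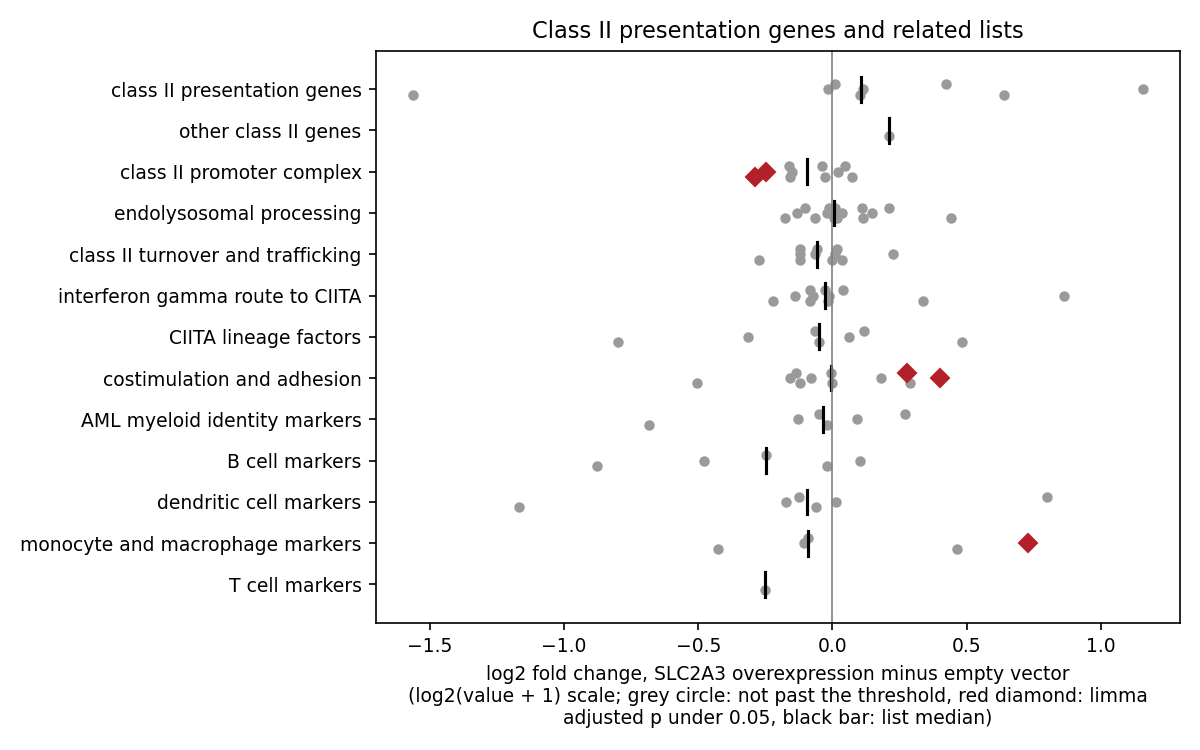
Log2 fold change of every tested gene in the class II presentation genes and in 12 related lists, SLC2A3 overexpression minus empty vector on the log2(value + 1) scale, with grey circles for genes not past the threshold, red diamonds for genes with a limma adjusted p under 0.05 and a black bar at each list's median. The called genes are 2 lower genes of the promoter complex, 2 higher genes of costimulation and adhesion and 1 higher monocyte marker.

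Markers of the blood cells that carry class II were measured beside these values. Monocyte and macrophage markers summed to 11066 to 12358 normalised reads with the empty vector and 10751 to 10875 with SLC2A3, and MRC1 was at 0. LYZ, at 9694 to 11216, held most of that sum. Of the 5 tested of 7, 4 had an unadjusted p under 0.05 (11.8% of all tested genes): LYZ and CSF1R with lower means in the SLC2A3 group, and FCN1 and CD163 with higher ones. Groups did not overlap for 3 (16.3% of all tested genes), all but CD163 of these 4. limma called 1 of the 5 higher and 0 lower, beside 0.692% and 0.8% of all tested genes. The called gene, FCN1, a ficolin of monocytes, rose from 78.6 ± 7.37 to 131 ± 10.2 normalised reads, 1.66-fold (limma adjusted p = 0.0399). edgeR called it too (adjusted p = 0.0195) and DESeq2 gave it no adjusted p, and the limma call was lost when any 1 library was left out, with an adjusted p of up to 0.159. It was also lost with the replicate block (adjusted p = 0.0506) and with a pseudocount of 0.1 (0.0508) or 10 (0.0841). CSF1R, the receptor of macrophage growth factor, averaged 391 ± 28.7 and 292 ± 45.2 (limma adjusted p = 0.0587) and was called lower by edgeR (adjusted p = 0.0303) and DESeq2 (adjusted p = 0.0397). Of the list, edgeR called 1 of 5 genes higher and 1 lower (3.29% of all genes in either direction). DESeq2 called 0 of 3 higher and 1 lower (7.98% of all in either direction).

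Dendritic cell markers summed to 349 to 387 normalised reads with the empty vector and 333 to 386 with SLC2A3, with CLEC9A at 0. B cell markers summed to 1038 to 1081 and 1027 to 1097. EBF1 at 761 to 930 held most of the B cell sum, while MS4A1, which encodes CD20, was at 0 in every library. T cell markers summed to between 4.0 and 8.36, with CD3D and CD3E at 0. In these 3 lists, limma called 0 of 6, 0 of 5 and 0 of 1 tested genes (1.49% of all tested genes). It gave 0 of them an unadjusted p under 0.05 (11.8% of all). edgeR called 0 of the 6 it tested (3.29% of all) and DESeq2 0 of 1 (7.98% of all). The part of these markers in the class II values was not tested.

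The genes whose pattern over the 6 libraries was most like that of CD74, the gene with the highest level per kilobase, were SURF6, CFAP97 and ENSG00000273314. Their Pearson correlations with CD74 on the log2(value + 1) scale were 0.993, 0.986 and 0.978, over 6 libraries that share 1 normalisation, the highest among 13273 genes with a mean of at least 50 normalised reads. Over so few libraries, the highest of so many correlations can be this large by chance, which was not tested. SURF6, a nucleolar protein, held 3799, 3545 and 3755 normalised reads with the empty vector and 4150, 4184 and 3936 with SLC2A3. As for CD74, the lowest value was in the empty vector library numbered 2.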

How the data were processed

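RNA was extracted with Trizol and libraries were made with a NEBNext Ultra II Directional kit, per the labels' protocols. The deposited values are a normalised signal per gene in which the authors had scaled each library's gene counts by a single factor. The values show this, being whole multiples of 1 step per library within 0.001 reads. BWA, TopHat2 and hg38 are named per the submitters' processing notes, and the counting tool, annotation and use of strand are not given in the sources used here. Symbols matched 60641 of 60660 IDs, and coordinates and exon lengths are from GENCODE 29 (GRCh38, 1-based).

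The main test was limma-trend (limma 3.58.1, R 4.3.3) on log2(value + 1), comparing the groups with no covariate. It covered the 28015 genes that reached 1 or more in 3 or more libraries, with Benjamini-Hochberg adjustment over them and a threshold of 0.05. For low genes, the added 1 and the averaging of logs can place these fold changes above or below the fold difference of means. edgeR 4.0.16 and DESeq2 1.42.0 were run on the recovered reads, whose totals of 31054462 to 35770556 per library set the precision. Counting intervals and limits cover counting error only. The functions were tested on simulated data. Every replicate pair differed by more than sampling noise (chi-square per gene 3.5 to 6.78). Alternatives changed scaling, pseudocount, filter, test and replicate block, and left out each library.

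The class II genes and the lists were chosen with earlier results of these data known. Named genes were SLC2A3, the 10 class II genes, every listed gene past the threshold, the 4 most abundant genes of each list, other class II genes and the 3 genes most like CD74. RN7SL1, RFXAP, NFYC, CTSS, LGMN, IFI30, IFNG, IRF1, MARCHF1, SOCS1, CD83, CD9, AP1M1, CD58, CD86, CD34, KIT, BRD2, DEXI, RFX5-AS1, NLRC5, HLA-B, HLA-C and the markers named as being at 0 fall outside that rule and were chosen after their values were seen. Some genes that the rule covers are not reported here.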

Additional observations from a re-analysis of the deposited data

How the results depend on the processing

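The 10 class II presentation genes gave 0 calls in the analysis reported and in each of 16 alternatives, not all of which tested every gene. Of the alternatives, 1, leaving out both libraries numbered 2, was chosen after seeing the data. CIITA kept a positive log2 fold change (0.27 to 0.59), as did CD74 (0.07 to 0.13), HLA-DRA (0.30 to 2.23) and HLA-DPA1 (0.10 to 1.13), and HLA-DMB a negative one (-1.98 to -0.68), wherever they were tested. RFX5, HLA-DMA and HLA-DQB1, uncalled throughout, took the other sign in 4, 3 and 2 alternatives. The SLC2A3 log2 fold change was 1.68 to 1.74. Over all genes, 194 were called higher and 224 lower. DESeq2 called 343 and 441, edgeR with upper-quartile factors 303 higher and 265 lower, and a filter of at least 50 in 3 libraries gave 322 and 417. A pseudocount of 0.1 gave 144 lower. Leaving out 1 library gave 100 to 222 higher and 88 to 244 lower, the fewest without SLC2A3 overexpression replicate 3. Counts also moved over 1.5 times without empty vector replicate 3 (121 and 100), as did the lower count when SLC2A3 overexpression replicate 2 (140) or empty vector replicate 1 (132) was left out. The cause was not tested. CREBBP and ICOSLG kept their calls in all 16 alternatives, EP300 and TNFSF9 in 15, and FCN1 in 5 of 15. The labels do not say whether shared library numbers mark a pairing. Same-numbered deviations from the group means correlated at -0.11, 0.01 and -0.00 over 11730 genes. With 3 libraries per group these correlations cannot decide the question. With the replicate block, 167 genes were called higher, 196 lower and 0 of the class II genes, and SLC2A3 stood at 1.70. Read number limits HLA-DRA, HLA-DPA1, HLA-DQB1 and HLA-DMB, whose intervals span large changes in at least 1 direction. HLA-DRB1 and HLA-DPB1 did not pass the filter of the main test, and limma tested them only with that filter left out.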
